A study of Mus musculus with 6 samples.

Results

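Among the droplets of adult mouse sciatic nerve, 280 held RNA of endothelial cells and of mural cells under the same barcode, and they are called joint droplets here. A barcode from a postnatal day 60 (P60) library was counted as joint if it had 500 to 5000 detected genes, at least 3 unique molecular identifiers (UMIs, each standing for 1 captured RNA molecule) of Pecam1, Cldn5 and Cdh5 together, and at least 5 UMIs of Rgs5, Pdgfrb and Kcnj8 together. It also had no UMI of the leukocyte gene Ptprc, none of the Schwann cell gene Sox10, and fewer than 10 UMIs of the fibroblast gene Dcn. P60 replicates 1, 2 and 3 gave 80, 125 and 75 such droplets, out of 12602 P60 droplets with 500 to 5000 genes and 24337 such droplets in the whole series. For comparison, 1557 endothelial-only droplets passed the endothelial threshold with at most 1 UMI of the mural rule genes, and 362 mural-only droplets passed the mural threshold with at most 1 UMI of the endothelial rule genes, under the same other limits. The droplets were thus chosen by the raw UMIs of 9 genes, and the levels of these genes are given only as a description.

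The study profiled dissociated cells of whole sciatic nerves with the 10x Genomics Chromium 3' assay at P1 and P60, with 3 libraries per age. At both ages the mice were on the C57bl/6J background and carried a Cre transgene active in Schwann cells, ReYFPTg/+, a yellow fluorescent reporter that Cre switches on, and βAct-DsRedTg/+, a red one expressed in all cells. Animals of both sexes were pooled in equal numbers for each library. DsRed-positive cells were sorted, and at P1 only the sort also reduced the cells positive for both reporters. The labels call the libraries biological replicates, and p-values measure the spread between these pools, not between animals.

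Capillaries are tubes of endothelial cells wrapped by pericytes, which share a basement membrane with the endothelium and touch it through gaps in that membrane. Arterioles and venules carry contractile smooth muscle in place of pericytes, and both wall types are called mural cells. In peripheral nerve, the endothelium inside the fascicles forms the blood-nerve barrier, with tight junctions, glucose transporters and drug efflux pumps, whereas the vessels outside the fascicles are more permeable. Endothelial cells recruit pericytes with platelet-derived growth factor B, which binds the receptor encoded by Pdgfrb, and both cells exchange Notch, angiopoietin, endothelin and transforming growth factor signals.

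The P60 libraries held 22116950, 26480736 and 20203440 UMIs in all, and the joint droplets 769169, 1121336 and 557545 UMIs. P60 replicate 3 stood apart from the other P60 libraries, with 16.3% of its kept droplets above 10% mitochondrial counts against 2.97% and 4.84%, so the main results are also given without it. The P60 libraries shared 27 to 29 barcodes pairwise, of which 1 was a joint droplet of replicates 1 and 3. In replicates 1, 2 and 3 a joint droplet had a median of 9067.5, 8448 and 7095 UMIs and 3350.5, 3114 and 2882 genes. The medians of the endothelial-only and mural-only droplets of the same library added up to 8189, 7735 and 7060 UMIs, so a joint droplet held 1.11, 1.09 and 1.00 times the sum of both. By the same rule at P1 the ratios were 0.880, 1.08 and 0.642, from 4, 6 and 4 joint droplets. The rule set raw UMI limits on both sides, which favour deep droplets as joint, so these ratios are only a description. Whether a joint droplet held 1 cell or several was not tested, and no doublet caller was run. The upper limit of 5000 genes left out 2 droplets that met every other condition, both in replicate 1.

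The levels of the rule genes describe how the rule chose the droplets, with no test. Pecam1, an adhesion receptor of endothelial junctions, stood at 719, 713 and 646 CPM (counts scaled to a total of 1000000 UMIs) in the joint droplets of replicates 1, 2 and 3, at 867 ± 72.5 CPM in endothelial-only and 10.9 ± 3.8 CPM in mural-only droplets (mean ± SD, n = 3 libraries). Cldn5, the claudin of endothelial tight junctions, stood at 1847, 2079 and 1333 CPM, against 4667 ± 540.2 CPM in endothelial-only droplets, and 68.6% of joint droplets had a UMI of it. Rgs5, a regulator of G protein signalling abundant in mural cells, stood at 1589, 1629 and 2373 CPM, against 4556 ± 259 CPM in mural-only and 8.64 ± 1.56 CPM in endothelial-only droplets. These levels follow from the UMI limits of the classes. Pdgfrb, the receptor for platelet-derived growth factor B, stood at 351, 367 and 448 CPM, against 669.7 ± 26.6 CPM in mural-only and 3.8 ± 1.63 CPM in endothelial-only droplets. Cdh5, the cadherin of endothelial junctions, stood at 413, 428 and 411 CPM and Kcnj8, a potassium channel subunit, at 376, 365 and 255 CPM, against 452 ± 42.7 CPM of Cdh5 in endothelial-only and 3.07 ± 1.69 CPM of Kcnj8 in endothelial-only droplets. Dcn stood at 341, 227 and 228 CPM, at 327, 259 and 219 CPM in endothelial-only and at 320.5, 264 and 280 CPM in mural-only droplets. Close to the thresholds, 7 joint droplets had exactly 3 endothelial UMIs and 15 further droplets had 2, and 13 joint droplets had exactly 5 mural UMIs and 19 further droplets had 4.

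Joint droplets were frequent at P60 and rare at P1. They made up 13.8, 14.7 and 8.63% of the droplets that passed either threshold in P60 replicates 1, 2 and 3, and 1.14, 1.34 and 0.962% in the P1 libraries, where the same rule found 4, 6 and 4 droplets. The exact binomial 95% intervals of the P60 libraries reached from 6.85 to 17.2% and those of the P1 libraries from 0.263 to 2.9%, for counting error only, so the ages did not overlap. The mean was 12.4% ± 3.27 at P60 and 1.15% ± 0.191 at P1 (SD, n = 3 libraries), a difference of 11.2 percentage points (two-sided exact permutation test, p = 0.1, the smallest p that 3 against 3 libraries allow). Without P60 replicate 3 the difference was 13.1 points. With each droplet thinned to 2000 UMIs the shares were 4.66% ± 0.940 at P60 and 0.186% ± 0.163 at P1, again without overlap.

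Endothelial RNA was more common beside mural RNA than beside fibroblast or immune RNA. For this comparison no droplet was excluded for UMIs of another cell type, so 305 P60 droplets passed both thresholds. Of the mural-positive droplets of replicates 1, 2 and 3, 46.0, 46.2 and 32.9% also passed the endothelial threshold. The same held for 7.30, 8.37 and 7.46% of droplets with at least 10 Dcn UMIs and for 3.57, 1.95 and 0.971% of those with at least 3 UMIs of the leukocyte genes Ptprc, Laptm5 and Coro1a. The endothelial threshold was passed by 20.4% of all kept P60 droplets, so the mural-positive droplets lay above this level in every library and the other classes below it. The mural threshold was passed by 0.690% of Dcn-positive droplets, which is the level of mural RNA in droplets of another cell type. This order is a description, with no test.

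**Figure D1:**
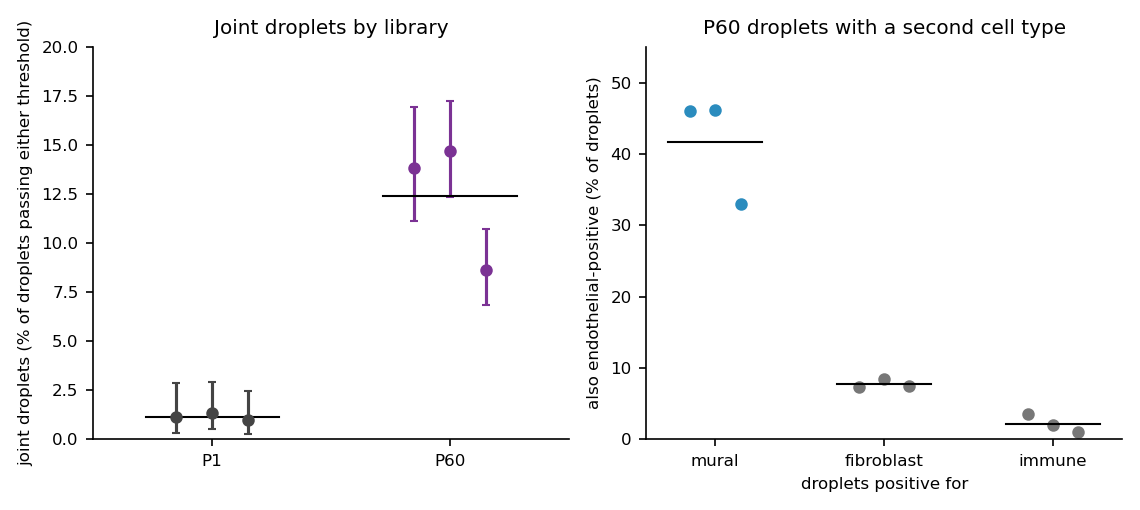
Joint droplets as percent of the droplets that passed the endothelial or the mural threshold (left, 1 point per library, bars are exact binomial 95% intervals), and P60 droplets positive for a cell type that also passed the endothelial threshold (right, 1 point per library). Horizontal lines are means. The 3 P60 libraries lay at 8.63 to 14.7% and the 3 P1 libraries at 0.962 to 1.34%, and mural-positive droplets were endothelial-positive more often than fibroblast- or immune-positive droplets in each library.

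The endothelial share of the RNA was estimated for each droplet by maximum likelihood, as the mixture of the mean endothelial-only and mural-only profiles of P60 that best described its counts outside the rule genes and the mitochondrial genes. The median endothelial part of a joint droplet was 69.3, 69.4 and 59.3% in replicates 1, 2 and 3. It lay between 20 and 80% in 66.25, 66.4 and 84% of the joint droplets, in 1.04, 1.44 and 8.24% of the endothelial-only and in 3.33, 3.76 and 1.44% of the mural-only droplets. Most joint droplets thus held a sizeable part of each profile over genes that the rule did not use. The single droplets made up the profiles themselves, so their place near the ends of the scale follows from the fit and tests nothing. For all joint droplets of a library together, the endothelial part was 71.6, 72.7 and 66.1% (70.1% ± 3.53, SD, n = 3 libraries), and 72.2% without replicate 3. From 30 marker genes alone, 15 endothelial and 15 mural, it was 75.5% ± 1.54.

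**Figure D2:**
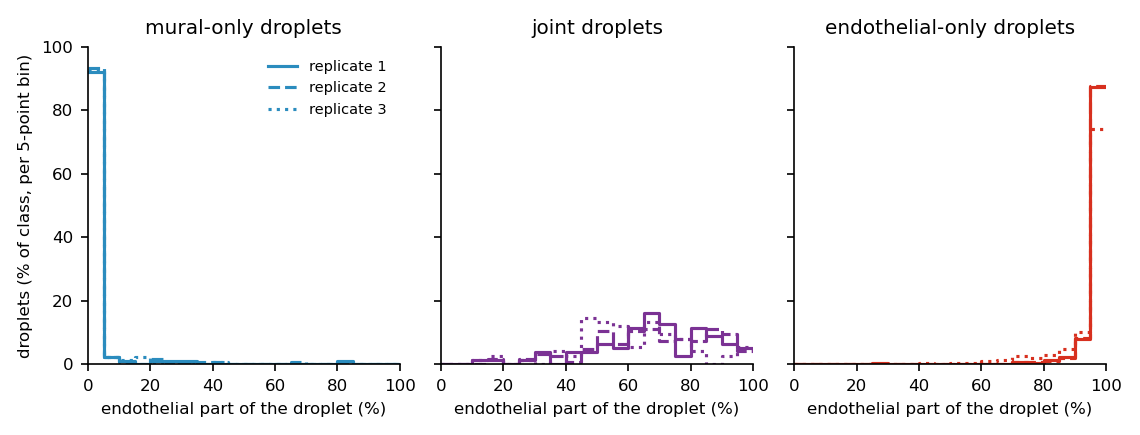
Endothelial part of each droplet's RNA (horizontal axis, percent) for the mural-only, joint and endothelial-only droplets of P60, as percent of the droplets of the class per 5-point bin, with 1 line per library. Single droplets, from which the profiles were made, gather at the ends of the axis. The joint droplets spread between them, with medians of 69.3, 69.4 and 59.3%.

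The endothelial side of the joint droplets was mostly of the Cd300lg capillary state. States were called from lists of 8 genes each, by the list with the most UMIs in a droplet. The barrier list held genes of the blood-nerve barrier, among them the glucose transporter Slc2a1, the organic anion transporter Slco1a4 and the efflux pump Abcb1a. The Cd300lg list held capillary genes of lipid uptake, among them Cd300lg, Gpihbp1, which anchors lipoprotein lipase, Cd36 and Fabp4. Of 280 joint droplets, 232 (82.9%) were called Cd300lg, 43 (15.4%) barrier, 2 lymphatic, and none arterial or venous, with 3 unassigned. The barrier state took 11.5, 17.7 and 16% of the assigned joint droplets in replicates 1, 2 and 3, and 54.7, 53.0 and 54.5% of the assigned endothelial-only droplets, with no overlap. The means were 15.1% ± 3.20 and 54.1% ± 0.946 (SD, n = 3 libraries), a difference of -39.0 points (two-sided exact permutation test, p = 0.1, the smallest possible), and -39.2 points without replicate 3. Both shares come from the same libraries, and an exact sign-flip permutation test of the 3 differences within libraries gave p = 0.25, the smallest it allows.

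Mural-only droplets also held Fabp4 (4234 ± 642 CPM), Cd36 (222 ± 45.7 CPM) and Timp4 (99.8 ± 45.0 CPM), 3 genes of the Cd300lg list. Without them, an alternative chosen after seeing the data, the barrier share was 21.8% ± 0.897 in joint and 56.3% ± 1.20 in endothelial-only droplets, a difference of -34.5 points. A likelihood fit of each droplet to the profiles of 5 endothelial and 2 mural states, in which mural Fabp4 counts for the mural part, gave 17% ± 2.65 and 55.9% ± 1.08 (each with exact permutation p = 0.1). These profiles were made of the single droplets as called by the full lists. The fitted shares, above all those of the single droplets, are therefore not independent of the list calls. Levels of single genes are given as a description. Slc2a1 and Slco1a4 are in the barrier list, so their levels restate the state calls. Joint levels also include mural RNA, 29.9% of the fitted plain mixture, which lowers endothelial genes. Slc2a1 stood at 225, 293 and 185 CPM in joint and 1234, 1167 and 1068 CPM in endothelial-only droplets, and Slco1a4 at 194, 293 and 159.6 against 889, 839 and 879 CPM. Rbp7, a retinol-binding protein that no list held, stood at 508, 606 and 752 CPM in joint droplets, 217 ± 9.64 CPM in endothelial-only and 16.4 ± 26.7 CPM in mural-only droplets, and at 661 CPM in single droplets called Cd300lg against 57.0 CPM in those called barrier.

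On the mural side, the split of the joint droplets between the pericyte and smooth muscle states depended on how states were called. By the lists of 8 pericyte and 8 smooth muscle genes, the smooth muscle state took 64, 61.9 and 74.2% of the assigned joint droplets and 62.1, 66.9 and 81.5% of the assigned mural-only droplets in replicates 1, 2 and 3, ranges that overlap (66.7% ± 6.59 against 70.2% ± 10.1, difference -3.45 points, two-sided exact permutation test, p = 0.6). Endothelial-only droplets held the smooth muscle genes Acta2 (962 ± 256 CPM) and Tagln (683 ± 78.2 CPM), and 76 of the 280 joint droplets had a lead of at most 2 UMIs between the lists. Without Acta2 and Tagln, chosen after seeing the data, the shares were 22.7, 16.8 and 32.3% in joint and 37.5, 37.0 and 57.8% in mural-only droplets (difference -20.2 points, exact permutation p = 0.1). The likelihood fit, whose profiles came from single droplets called by the full lists, is not independent of those calls. By the likelihood fit the shares were 28.2% ± 14.9 and 60.3% ± 12.7 (difference -32.1 points, exact permutation p = 0.1). Neither of these comparisons overlapped between the classes, and with differences taken within libraries the exact permutation p was 0.5 by the lists and 0.25 in both other ways. By that fit, 171 joint droplets paired the Cd300lg with the pericyte state, 49 the Cd300lg with the smooth muscle state, 33 the barrier with the pericyte state and 16 the barrier with the smooth muscle state, and the 8 droplets called venous were all paired with smooth muscle.

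**Figure D3:**
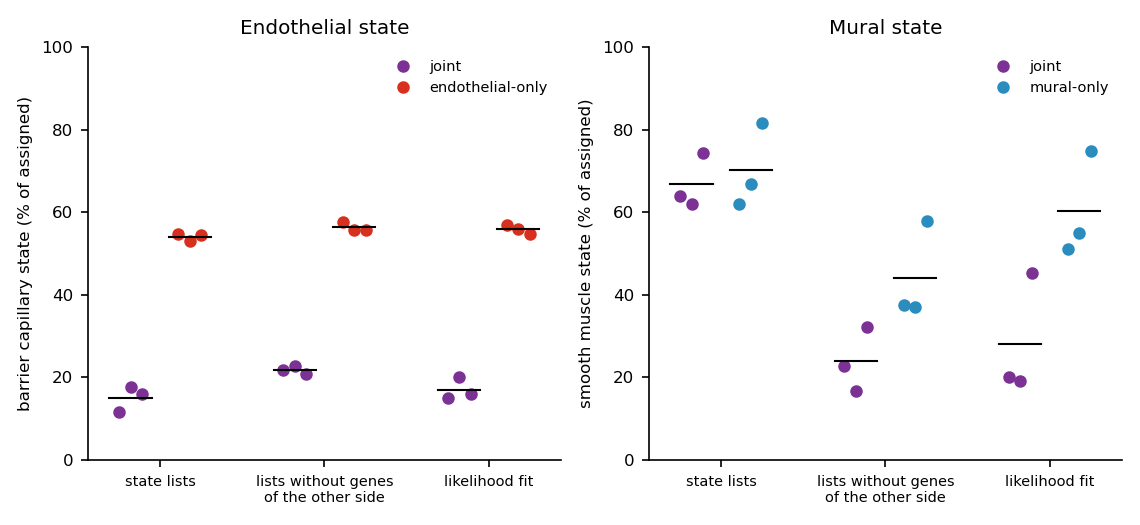
Percent of assigned droplets called barrier capillary (left, joint against endothelial-only) and smooth muscle (right, joint against mural-only) in the 3 P60 libraries, by the state lists, by the lists without genes that the other side holds, and by a likelihood fit of each droplet. Each point is 1 library and lines are means. The barrier share of joint droplets lay below that of endothelial-only droplets in all 3 ways, and the smooth muscle share overlapped by the state lists and not by the other ways. The fit used profiles of single droplets called by the full lists, so the ways are not independent.

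Whether the joint droplets were more than a sum of both cell types was asked gene by gene. For each library the expected counts were the weighted sum of its own endothelial-only and mural-only droplets, and edgeR's quasi-likelihood test compared joint and expected counts with the library as a block. Of 8060 genes tested outside the rule, 515 (6.39%) were above the sum and 426 (5.29%) below it at an adjusted p under 0.05, and the median gene did not move (log2 change 0.0025). Of these, 150 and 139 differed at least 2-fold. A further sum, called the state-resolved sum, was made of barrier, Cd300lg, arterial, venous, pericyte and smooth muscle single droplets, so that the states could differ from the makeup of the single droplets. Its mean weights were 53.8% Cd300lg, 15.9% barrier, 0.592% arterial, 1.43% venous, 14.7% pericyte and 13.6% smooth muscle. A state with under 10 single droplets in a library was taken from all P60 libraries together, and lymphatic droplets were not a component. The states were called by the full lists, whose split of the mural droplets changed with the way of calling. The sum was not made again with the other calls, so its pericyte and smooth muscle weights and the calls of mural genes rest on these lists. Against this sum, 433 of 7682 genes (5.64%) were called, 240 (3.12%) above and 193 (2.51%) below, of which 213 and 131 had been called in the same direction against the plain sum. The number of calls rested on the block, which compares joint and expected counts within a library, and on the tool. Without the block 10 genes were above and 17 below the state-resolved sum, and with DESeq2 50 and 29. It also rested on single libraries: without replicate 1 146 and without replicate 2 100 genes were above, without replicate 2 96 were below, and without replicate 3 269 were above and 223 below.

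All 10 genes farthest above the state-resolved sum had a higher mean level in mural-only than in endothelial-only droplets. Cyp26b1, which encodes an enzyme that degrades retinoic acid (chr6:84571414-84593908, GRCm38), stood at 48.1, 67.8 and 87.9 CPM in the joint droplets of replicates 1, 2 and 3 against 8.99, 11.1 and 16.1 CPM in the state-resolved sum (a log2 change of 2.49 with SE 0.20 and edgeR adjusted p = 6.95e-06). All 3 joint values lay above all 3 expected ones, and above the 45.8, 18.9 and 14.2 CPM of mural-only droplets. Of the joint droplets, 24.3% had a UMI of it. Shox2, a homeobox transcription factor (chr3:66971727-66981771), stood at 104, 135 and 151 CPM against 38.7, 31.9 and 36.2 CPM (a log2 change of 1.83 with SE 0.15 and edgeR adjusted p = 6.95e-06). It was found in 52.9% of joint and 24.6% of mural-only droplets, where the library medians were 7095 to 9067.5 and 2991 to 3350 UMIs per droplet, and its joint and expected values did not overlap. Both genes were called in every one of the 15 alternatives in which they could be tested, the fit without the block included.

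Of these 10 genes, 3 encode ADAMTS enzymes, secreted metalloproteases of the extracellular matrix. Adamts12 (chr15:11064790-11349231) stood at 58.5, 51.7 and 100.4 CPM against 12.1, 14.1 and 31.2 CPM (a log2 change of 1.85 with SE 0.19 and edgeR adjusted p = 6.68e-05). Adamts15 (chr9:30899155-30922452) stood at 15.6, 27.6 and 28.7 CPM against 4.91, 5.74 and 7.08 CPM (a log2 change of 1.91 with SE 0.32 and edgeR adjusted p = 0.00217). Adamts4 (chr1:171250421-171260637) stood at 48.1, 60.6 and 181 CPM against 19.0, 9.03 and 66.2 CPM (a log2 change of 1.68 with SE 0.20 and edgeR adjusted p = 0.000222), where the highest expected library lay above the lowest joint ones. Without the block the adjusted p of these 3 genes was 0.0634, 0.0634 and 0.469 (edgeR). Fst, the activin-binding protein follistatin (chr13:114452290-114458951), stood at 157, 109 and 418 CPM against 98.3, 29.6 and 59.4 CPM (a log2 change of 1.75 with SE 0.24 and edgeR adjusted p = 0.000601), and it was high in replicate 3. Its adjusted p was 0.126 with DESeq2 and 0.209 without the block (edgeR), and its log2 change was 1.15 to 2.37 with 1 library left out.

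The other genes named by the same rule were low. Slc4a11, a membrane transporter, stood at 31.2, 35.7 and 32.3 CPM against 17.8, 5.61 and 3.20 CPM (a log2 change of 1.90 with SE 0.35 and edgeR adjusted p = 0.00466), and without replicate 2 the adjusted p was 0.0782. Rnf152, a ubiquitin ligase of lysosomes, stood at 26.0, 46.4 and 68.2 CPM against 6.46, 11.2 and 21.3 CPM (a log2 change of 1.83 with SE 0.22 and edgeR adjusted p = 0.000217). Dlk1, an imprinted gene for a membrane protein related to Notch ligands, stood at 70.2, 37.5 and 26.9 CPM against 10.3, 14.3 and 11.8 CPM (a log2 change of 1.80 with SE 0.28 and edgeR adjusted p = 0.00112). Irs3, an insulin receptor substrate, stood at 20.8, 19.6 and 16.1 CPM against 3.46, 8.66 and 3.4 CPM (a log2 change of 1.68 with SE 0.37 and edgeR adjusted p = 0.0156). The call of Irs3 was lost without replicate 1, and all 4 calls were lost without the block.

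Below the state-resolved sum lay venous genes and genes of some mural cells, beside Cytl1. Cytl1, a secreted cytokine-like protein (chr5:37735519-37739820), stood at 2.60, 0.892 and 3.59 CPM, with 5 UMIs in 4 of 280 joint droplets, against 298, 139.8 and 92.3 CPM (a log2 change of -6.36 with SE 0.25 and edgeR adjusted p = 2.93e-09); its level was 5608 CPM in single droplets called arterial and 272 CPM in those called Cd300lg. Ackr1, a chemokine-binding receptor of venules (chr1:173331886-173333750, overlapping Cadm3 on the same strand), stood at 41.6, 14.3 and 12.6 CPM against 198, 151 and 151 CPM (a log2 change of -2.91 with SE 0.19 and edgeR adjusted p = 1.13e-06), and at 817 CPM in single droplets called venous. The joint values of both genes lay below all expected ones. Ackr1 is in the list that called the venous state, so its level there is not independent of how the droplets were chosen. Nt5e, an enzyme that makes adenosine, stood at 9.10, 4.46 and 5.38 CPM against 26.3, 18 and 37.7 CPM (a log2 change of -2.02 with SE 0.33 and edgeR adjusted p = 0.00203). Pcdh7, a protocadherin that overlaps several predicted genes on the same strand, stood at 3.90, 1.78 and 3.59 CPM against 16.7, 17.8 and 25.4 CPM (a log2 change of -2.70 with SE 0.43 and edgeR adjusted p = 0.00144).

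On the mural side, Pgf, a ligand of the receptor Flt1 (chr12:85166635-85177790), stood at 1.30, 1.78 and 5.38 CPM against 14.2, 31.5 and 21.4 CPM (a log2 change of -3.22 with SE 0.44 and edgeR adjusted p = 0.000455). It was found in 17.1% of mural-only and 2.14% of joint droplets. The joint droplets had more UMIs in total, but only 29.9% of their fitted plain mixture was mural. Fmod, a collagen-binding proteoglycan (chr1:134037254-134048277), stood at 10.4, 8.03 and 8.97 CPM against 48.2, 46.1 and 35.4 CPM (a log2 change of -2.31 with SE 0.24 and edgeR adjusted p = 6.46e-05). Pi15, a secreted protein (chr1:17601901-17630939), stood at 6.50, 3.57 and 19.7 CPM against 29.0, 39.9 and 74.9 CPM (a log2 change of -2.46 with SE 0.28 and edgeR adjusted p = 0.000147). All 3 were low in endothelial-only droplets, at 7.17, 6.64 and 1.52 CPM on average, and in each of them no joint value reached an expected one. Slc38a11, of a family of amino acid transporters, stood at 2.60, 4.46 and 8.97 CPM against 20.7, 17.3 and 41.9 CPM (a log2 change of -2.29 with SE 0.34 and edgeR adjusted p = 0.000957). On neither side alone lay Top2a, a topoisomerase of dividing cells, which had 1 UMI in all joint droplets, against 20.2, 16.3 and 17.6 CPM in the state-resolved sum, which is 37.0 UMIs. The ratio was 0.0270 with an exact Poisson 95% interval of 0.000684 to 0.151 for counting error only. In the mural-only droplets it stood at 70.2, 2.36 and 0 CPM, high in replicate 1 alone, and in single droplets called Cd300lg at 25 CPM. Without the block the calls of Pi15, Slc38a11 and Nt5e were lost (edgeR adjusted p = 0.0688, 0.0737 and 0.0648).

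Some genes were higher in the joint droplets than in both kinds of single droplets. In all 3 libraries this held for 719 of 8060 genes (8.92%), a count made with no test. Of these, 280 were called above the plain sum and 113 above the state-resolved sum. In the other direction, 259 genes (3.21%) lay below both kinds. A weighted sum of the 2 class means cannot lie outside them, but counting error or another makeup of states can put a gene there. Among the genes called above the plain sum, Cfd, Timp4, Gm5, Cd36 and Car3 had the largest margins above both kinds. Timp4, an inhibitor of metalloproteases, stood at 328, 387 and 377 CPM in joint, 89.1, 78.2 and 133 CPM in endothelial-only and 85.5, 63.7 and 150.1 CPM in mural-only droplets (a log2 change of 1.92 with SE 0.14 and edgeR adjusted p = 1.63e-06 against the plain sum). Its single droplets called Cd300lg held 344 CPM, and against the state-resolved sum of 182, 163 and 302 CPM the change was 0.80 ± 0.13 (edgeR adjusted p = 0.0022). Cd36, the fatty acid receptor, stood at 1194, 1021 and 1390 CPM in joint and 350.5, 342 and 512 CPM in endothelial-only droplets. Its log2 change was 1.77 ± 0.084 against the plain and 0.47 ± 0.086 against the state-resolved sum (edgeR adjusted p = 7.35e-08 and 0.00469). Both genes are in the list that called the Cd300lg state, so their level in that component is not independent of how its droplets were chosen.

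Cfd, the complement protease adipsin, had the largest log2 change above the plain sum among called genes with the same direction in all 3 libraries and at least 20 UMIs, 3.11 ± 0.28 (edgeR adjusted p = 1.03e-05), with 91.0, 127 and 17.9 CPM in joint droplets. It was found in 36 joint droplets, 5 of which held 67.6% of its UMIs, and DESeq2 gave an adjusted p of 0.0543. Car3, a carbonic anhydrase of muscle and fat, stood at 58.5, 57.1 and 28.7 CPM, with 48.8% of its UMIs in 5 droplets (a log2 change of 2.17 with SE 0.26 and edgeR adjusted p = 8.86e-05), and it was not called against the state-resolved sum (adjusted p = 0.196). Rbp7, the retinol-binding protein gene, changed by 1.91 ± 0.12 and, against the state-resolved sum, by 0.69 ± 0.089 (edgeR adjusted p = 7.57e-07 and 0.000312). Prdm1, a transcriptional repressor, stood at 37.7, 29.4 and 43.0 CPM (a log2 change of 1.92 with SE 0.24 and edgeR adjusted p = 0.000155), Egr2, a zinc finger transcription factor, at 35.1, 22.3 and 37.7 CPM (a log2 change of 1.97 with SE 0.27 and edgeR adjusted p = 0.000297), and the predicted gene Gm5 at 33.8, 35.7 and 37.7 CPM (a log2 change of 2.07 with SE 0.24 and edgeR adjusted p = 8.82e-05).

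Genes of lymphatic vessels were below the plain sum, which contained 110 single droplets of the lymphatic state where the joint droplets had 2. Of 7 lymphatic genes tested, 6 were below it and none above, beside 5.29% and 6.39% of all genes. None was above at an unadjusted p (edgeR) or with DESeq2 either, which called 2 below. Without the block none was below. Lymphatic droplets were not part of the state-resolved sum, against which Ccl21a was above (3.27, edgeR adjusted p = 0.0165). Lyve1, a hyaluronan receptor, stood at 5.20, 1.78 and 62.8 CPM against 182, 107 and 103 CPM (a log2 change of -2.97 with SE 0.48 and edgeR adjusted p = 0.00108). Ccl21a, a chemokine, stood at 40.3, 15.2 and 1603 CPM against 2367, 2033 and 2039 CPM (a log2 change of -3.83 with SE 0.91 and edgeR adjusted p = 0.014), with 97.0% of its UMIs in 5 droplets, and both calls were lost without replicate 1 or without the block. Ccl21a is listed under 2 identifiers and has near-identical copies, so its counts are uncertain. The predicted gene Gm21541, with 5 UMIs in joint droplets, had a log2 change of -3.08. Abi3bp, Gpm6a and the arterial gene Gkn3 were also below the plain sum, at -2.95, -2.94 and -2.56 on the log2 scale.

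The marker lists that the rule did not use are described next, with log2 changes in parentheses, the first from the plain and the second from the state-resolved sum where a pair is given. Of 15 endothelial genes, 4 were above and 3 below the plain sum, with a median log2 change of 0.10, against 0.0025 over all tested genes and 6.39% and 5.29% of genes called. Kdr, the main receptor of vascular endothelial growth factor, was above both sums (1.21 and 0.68), at 367, 370.1 and 472 CPM in joint and 221, 213 and 279 CPM in endothelial-only droplets. Plvap, a protein of the diaphragms of permeable endothelium, was above the plain sum only (1.26 and -0.14). Vwf, which tethers platelets, was below both (-1.03 and -1.07). Ly6c1 and Egfl7, endothelial genes with high counts, had log2 changes of -0.012 and -0.018 from the plain sum and were not called. Of 8 barrier genes, 7 were below the plain sum and Itm2a above it (median -1.32), and against the state-resolved sum 1, Slc2a1, stayed below (-0.63). Of 8 Cd300lg genes, 7 were above the plain sum and Car4 below it (median 1.62); Gpihbp1, Rgcc, Cd36, Timp4 and Fabp4 stayed above the state-resolved sum and Car4 stayed below. Of 7 venous genes tested, 6 were below the state-resolved sum, beside 2.51% of all genes, Lrg1 at -1.36 and Selp at -1.06, with Vwf and Ackr1 among them. Of 6 arterial genes 1 was above and none below the state-resolved sum, against none above and 3 below without replicate 3. The single droplets of each state were called by these same lists. The levels of list genes in the state-resolved sum are therefore not independent of how its droplets were chosen. Without the block, 7 barrier genes were below and 7 Cd300lg genes above the plain sum, and none of these 16 genes was called against the state-resolved sum, where 2 venous genes were below.

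Among the mural markers outside the rule, Abcc9, the partner subunit of the potassium channel encoded by Kcnj8, was above both sums. It stood at 147, 136 and 154 CPM in joint and 186, 132 and 154 CPM in mural-only droplets, although the mural part of the sum was 29.9% (log2 change 1.61 and 1.19). Notch3, the Notch receptor of mural cells, stood at 248, 201 and 326 CPM against 151 ± 36.0 CPM in the state-resolved sum (0.75). Vtn, vitronectin, was below both sums (-0.48 and -0.71), and Higd1b and Art3, pericyte genes, were above the plain sum only. The contractile genes of smooth muscle were lower, and endothelial-only droplets held some of them too. The smooth muscle list summed to 2250 to 3002 CPM in joint and 1500 to 2119 CPM in endothelial-only droplets. In mural-only droplets it summed to 10652 to 18221 CPM. Acta2 stood at 865, 1108 and 1074 CPM in joint and 5622, 5018 and 7025 CPM in mural-only droplets (-1.30 and -0.62), and Tagln, Tpm2 and Mustn1 were also below both sums, though not below the state-resolved sum without the block. Of the 8 genes in the smooth muscle list 6 were tested against the plain sum and all 6 were below it, beside 5.29% of all genes. DESeq2 called 4 of them below the plain sum and the fit without the block 2. Among the 6 was Myh11, the smooth muscle myosin (-1.20), which was not called against the state-resolved sum. Of 15 mural markers, 3 were above and 3 below the plain sum, beside 6.39% and 5.29% of all genes. The other 9 were not called, and the median was -0.12.

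Genes of the basement membrane that both cells share were above the sum in several cases. Of 15 genes 14 were tested, and 7 were above and none below the state-resolved sum (median log2 change 0.39, against -0.0027 over all tested genes and 3.12% of genes called above). Against the plain sum 6 were above and none below. None was below the state-resolved sum at an unadjusted p under 0.05 (edgeR) or with DESeq2, which called 3 above. Without the block 1 was above, and without replicate 3 6 were. Timp3, a matrix-bound inhibitor of metalloproteases, stood at 3222, 3125 and 4073 CPM in joint droplets, 1123, 1157 and 1515 CPM in endothelial-only and 2762, 2665 and 2651 CPM in mural-only droplets, above both in all 3 libraries (log2 change 1.05 from the state-resolved sum, edgeR adjusted p = 8.38e-08). Col4a1 and Col4a2, the collagen chains of this membrane, stood at 527, 567 and 685 CPM and 363, 398 and 484 CPM, above the expected 379 ± 78.6 CPM and 266 ± 48.9 CPM (log2 change 0.63 and 0.62). Hspg2, the proteoglycan perlecan, the laminins Lamb1 and Lama4 and Nid1, nidogen, changed by 0.47, 0.77, 0.55 and 0.48. Sparc, the member with the most UMIs, was not called (0.14). The fibroblast collagens Col1a1, Col1a2 and Col3a1 were also above it (0.88, 0.76 and 0.63), while the fibroblast markers Lum, Pi16, Serpinf1 and Clec3b were not called, at -0.48 to -0.035.

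Of 30 genes of endothelial and mural signalling, 27 were tested against the state-resolved sum, 5 above and 2 below, beside 3.12% and 2.51% of all genes. Against the plain sum 5 of 26 were above, Angpt2 among them, and Tgfb2, Acvrl1 and Edn1 were below. The 5 above the state-resolved sum were receptors: Ednrb (1.24) and Ednra (0.74), which bind endothelins, Notch3, Notch4 (0.75) and Kdr. Ednrb stood at 181, 209 and 265 CPM in joint, 25.5, 21 and 31.0 CPM in endothelial-only and 149.6, 156 and 99.4 CPM in mural-only droplets, above both in every library. The ligand genes Pdgfb (0.38), Angpt2 (0.46), Jag1 (0.46) and Edn1 (-0.12) were not called against the state-resolved sum, and Vegfc (-1.45) and the Notch ligand Dll1 (-1.21) were below. Of 16 tested genes of junctions and adhesion, 5 were above and none below by edgeR, beside 3.12% and 2.51% of all genes (at an unadjusted p, 7 and 1, with DESeq2 none, and without replicate 3 2 above). Against the plain sum 2 were above and Esam below. The 5 were the connexins Gja1, Gja4 and Gjc1, which form gap junctions (log2 change 0.47, 0.41 and 0.48), and the integrins Itga1 and Itga7 (0.31 and 0.55). Without the block 1 signalling gene and no junction gene was above. Cdh2, the cadherin of contacts between pericytes and endothelium, was not called (0.62, adjusted p = 0.231). Of 12 genes linked to endothelial-mesenchymal transition, 10 were tested, Zeb2 was above (0.33), and Tagln and Acta2 were below. Twist1 and Cnn1 were not tested, no gene of the list was called without the block, and Snai1 and Snai2 were not called (-0.21 and 0.11).

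Most immediate early and stress genes, which respond within minutes to stimuli and to tissue dissociation, were above the sum. Of 15 genes, 12 were above the plain sum and 11 above the state-resolved sum (beside 6.39% and 3.12% of all genes, median log2 change 0.95 and 0.53). Fos stood at 2482, 2074 and 2807 CPM in joint droplets against 1711 ± 486 CPM in the state-resolved sum (0.52), and Egr1 at 829, 582 and 838 CPM against 399 ± 137 CPM (0.91). Jun, Junb, Jund, Fosb, Ier2, Nr4a1, Hspa1a, Hspa1b and Dnajb1 were also above it, by 0.41 to 1.00, and Atf3, Dusp1, Ier3 and Hsp90aa1 were not called. Hspa1a and Hspa1b are near-identical copies, between which reads may be split. The summed level of the list was 8637 to 10913 CPM in joint, 4366 to 5158 CPM in endothelial-only and 5503 to 9790.2 CPM in mural-only droplets. None was below the state-resolved sum at an unadjusted p either (edgeR), and Hsp90aa1 was below the plain sum (-0.38). DESeq2 called 8 genes above the state-resolved sum and none below, and no gene was called without the block, against 7 above the plain sum. The part of this list in the other changes was not tested.

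Immune and fibroblast markers were lower in the joint droplets than in droplets chosen for those cell types, while haemoglobin genes were high in a few joint droplets. The 8 immune markers summed to 104 to 348 CPM in joint droplets and 36405 CPM in Ptprc-positive droplets, and the 8 fibroblast markers to 867 to 1166 CPM against 15124 CPM in Dcn-positive droplets. The rule limited Ptprc and Dcn, and the comparison droplets were chosen by these genes, so these gaps follow from the selection. The fibroblast markers summed to 422 to 550 CPM in endothelial-only and 1282 to 1400 CPM in mural-only droplets. The only perineurial gene tested, Itgb4, was not called (-0.15 and -0.52), and of the muscle and adipocyte genes Car3 alone was called, above the plain sum. By edgeR no tested gene of the immune and fibroblast lists was above the state-resolved sum except the 3 collagens, also at an unadjusted p and with DESeq2. Of the cell cycle list, 11 of 12 genes were detected, and the list summed to 34.1 to 58.9 CPM in joint, 77.4 to 105 CPM in endothelial-only and 52.7 to 314 CPM in mural-only droplets. The haemoglobin genes Hba-a1, Hba-a2, Hbb-bs and Hbb-bt were above the plain sum by edgeR (log2 change 2.12 to 3.42). None of them was called with DESeq2, without the block, or against the state-resolved sum. In replicate 3 they stood at 0 CPM in joint and 32.4 CPM in endothelial-only droplets. Without replicate 3, 5 genes of the erythroid and platelet list were above each sum. The mice were not perfused, 1 joint droplet of replicate 1 and 4 of replicate 2 had at least 10 haemoglobin UMIs, and none of replicate 3 did. The 5 droplets with the most held over 99.8% of the haemoglobin UMIs in replicates 1 and 2. Without droplets of at least 10 haemoglobin UMIs, an alternative chosen after seeing the data, 271 genes were above and 221 below the state-resolved sum.

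**Figure D4:**
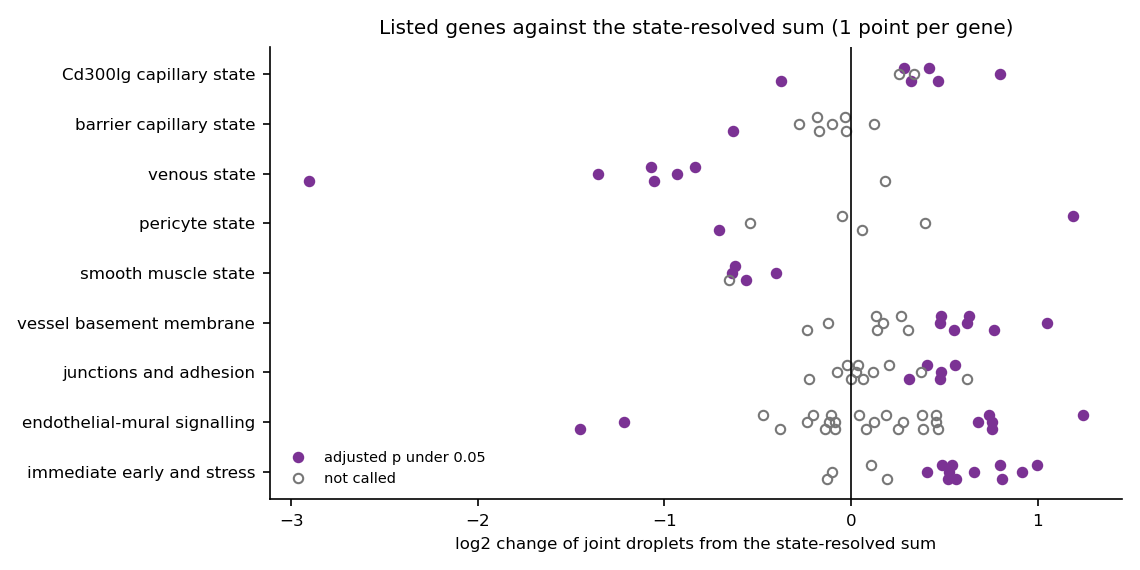
Log2 change of the joint droplets from the state-resolved sum for the tested genes of 9 lists, 1 point per gene, filled where the edgeR adjusted p was under 0.05 and open where it was not. Called genes of the basement membrane, the junction and the immediate early lists lie to the right of 0, and those of the venous and smooth muscle lists to the left. The capillary, venous, pericyte and smooth muscle lists also called the single droplets of the sum.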

How the data were processed

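Nerve cells were captured with Chromium Single Cell 3' v2 chemistry, and the authors deposited 1 filtered count matrix of UMIs per gene and barcode for each library, made with Cell Ranger 2.0.2 on GRCm38.p5 according to the submitters' processing notes. The values are raw counts, not normalized. Droplets with 500 to 5000 genes were kept, as in the study's methods. Of 41605 gene identifiers, 41435 matched the GENCODE M21 annotation of GRCm38, which gave the coordinates.

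The members, gene lists and tests were chosen with earlier results of these data known. Joint counts were summed per library. The expected counts were the weighted sum of single droplets of the same library, with maximum likelihood weights over genes outside the rule and the mitochondrial genes, scaled to the joint total where the pool of single droplets allowed it. Both were compared with the quasi-likelihood test of edgeR 4.0.16 (R 4.3.3), with TMM scaling, the library as block and Benjamini-Hochberg adjustment over all genes tested. The block rests on the design, since joint droplets and their sum come from 1 library. The deviations of both from their means correlated at 0.163, 0.715 and 0.706 across 3326 genes for the plain sum in replicates 1, 2 and 3, and at 0.131, 0.706 and 0.718 for the state-resolved sum. Replicate 1 correlated more with the sum of another library, at 0.634 and 0.616. Expected counts of the plain sum are averages over more droplets than the joint counts. The mural part of the state-resolved sum came from 33, 42 and 24 pericyte and 54, 85 and 106 smooth muscle droplets. The joint droplets numbered 80, 125 and 75. On simulated counts for the plain sum, 7966 genes, the test called 92.7% of genes raised 2-fold, 69.0% of genes lowered 2-fold and 0.0899% of unchanged genes. For the state-resolved sum, 7635 genes, these shares were 90.2, 72.1 and 0.0671%. The simulated joint counts were drawn around the expected counts of the same library, which were left without added noise. Low pairing such as that of replicate 1 was not simulated, so these shares do not give the rate of false calls in the data.

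The text names the 10 genes with the highest and the 10 with the lowest log2 change among genes called with the same direction in all 3 libraries and at least 20 UMIs, the 5 called genes with the largest margin above both single classes, the rule genes, and the 4 members of each list with the most UMIs. Other list genes with values were chosen after their values were seen. Intervals and floors cover counting error only. Whether counts used strand is not given in the sources used here. Values of a few genes and of the Schwann cell markers are not reported here.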

Additional observations from a re-analysis of the deposited data

How the results depend on the processing

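Gene counts, the smooth muscle share and the endothelial part moved. Against the plain sum, 515 genes were above and 426 below. DESeq2 called 127 and 113, the fit with no replicate block 142 and 122, and joint and single droplets with fewer than 3 Dcn UMIs gave 302 above. Against the state-resolved sum, 240 were above and 193 below, DESeq2 called 50 and 29, and the fit with no replicate block 10 and 17. Leaving out 1 P60 library gave 260 to 481 genes above and 246 to 455 below the plain sum, and 100 to 269 above and 96 to 223 below the state-resolved sum. Of the calls of named genes, 25 of 45 held without the block, 29 of 32 with DESeq2 and 44 of 45 without P60 replicate 3.

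With equal weights for both parts, which gives the mural side more than the fitted 29.9%, the direction turned for Egfl7 (0.45), Eng (0.34), Ly6c1 (0.45), Zeb2 (-0.29), Art3 (-0.030), Higd1b (-0.47) and Notch3 (-0.11). Weights from marker lists gave an endothelial part of 75.5%. The barrier share, the smooth muscle share and the difference between ages kept their direction in the alternatives run. Leaving out 1 library gave differences of -40.9 to -36.9 points for the barrier share, -6.14 to -1.53 for the smooth muscle share, which was -20.2 without Acta2 and Tagln and -32.1 by the likelihood fit, and 10.1 to 13.1 for the ages.

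With 3 libraries a side the exact permutation test cannot go below 0.1. Genes with few UMIs, such as Cytl1 with 5 in the joint droplets, rest on few molecules. A replicate block for the shares gave p of 0.25 and 0.5 (exact sign-flip permutation). Free RNA, doublets and vessel fragments were not modelled, and droplets were limited only by UMIs of other cell types.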
